A study of Mus musculus with 25 samples.

Results

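Congenic liver was set against congenic gastrocnemius, the large calf muscle, to describe how glucose, glycogen and amino acid genes differ between these tissues in the mouse strain B6.C-D7Mit353. The members are 6 of the 25 arrays of the series, 3 of liver and 3 of gastrocnemius, chosen by their strain and tissue labels alone. The labels call the strain a lean homozygous congenic, and its name refers to a marker on chromosome 7 on the C57BL/6J background. No treatment is given for any group, and the age, sex, diet and feeding state of the mice were not stated in the labels. The series text calls the samples of each strain and tissue biological triplicates. The C57BL/6J strain, called B6 here, gave 3 liver and 3 gastrocnemius arrays that serve as the reference for a strain comparison. Arrays go by the code in their title, L571, L409 and L552 for liver and Gas409, Gas407 and Gas552 for gastrocnemius, and values over 3 arrays follow this order. L409 shares its number with Gas409 and L552 with Gas552, and no label states that a number names an animal. Each array held 1 total RNA sample on a 1-colour Applied Biosystems chemiluminescent array of 32996 probes.

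Liver stores glycogen and releases glucose to the blood, makes glucose from lactate and amino acids, and disposes of amino acid nitrogen as urea. Skeletal muscle takes up glucose through an insulin-responsive transporter, stores it as glycogen for its own use and burns it to lactate or in mitochondria, but releases little free glucose. Many steps of these pathways are run by separate genes for a liver form and a muscle form of the same enzyme.

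A probe counts as detected where its signal was 3 or more times the noise, and 13336 to 15030 probes per array were, or 40.4% to 45.6%. A probe was tested where it was detected on at least 3 of the 6 arrays, and a gene was called where the limma adjusted p was under 0.05. Differences are log2 liver minus gastrocnemius with their standard error (SE), and levels are normalized log2 signals. A level belongs to its own probe and is not compared between genes. A gene detected on no array of a tissue has only a bound there, given with the words at least where it was called. Such a gene entered the test through its other tissue alone. Its p-value sets signal against background and is no separate support for the difference. Where only some arrays of a tissue detected a gene, the fitted difference is given and rests partly on background values there. In gastrocnemius this holds for Fbp1, Creb3l3, Slc25a13, Gnmt, Hal, Pcbd1, Aass and Kmo, among others. The bound compares the bright tissue's mean with the mean over the dim arrays, where each dim value was first raised to that array's lowest detected signal if it lay under it, and it usually equals the fitted fold. A bound allows for background only and not for the error of the fit, so it is no confidence limit. In bulk tissue, fewer cells of a type and less RNA per cell cannot be told apart.

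The tissue labels matched their markers. The summed log2 signal of 7 hepatocyte genes ran from 22.96 to 23.31 in liver and from 13.03 to 14.2 in gastrocnemius, and that of 9 muscle fibre genes from 11.33 to 11.66 and from 23.32 to 23.5. Liver arrays L409 and L552 stood apart by pancreatic acinar genes, which encode digestive enzymes. Their summed log2 signal was 11.7, 22.02 and 16.57 on liver arrays L571, L409 and L552, and 11.09 to 11.89 in gastrocnemius. All 8 acinar genes were detected on liver arrays L409 and L552 and 2 on liver array L571. Results below that rest on liver array L409 are given with and without it. Adipocyte genes summed to 17.39 to 18.59 in gastrocnemius and 12.63 to 14.24 in liver. Fabp4, a fatty acid carrier of fat cells, was at 17.77, 18.56 and 17.37 on gastrocnemius arrays Gas409, Gas407 and Gas552, and made up nearly all of that sum. Of the other adipocyte genes, Plin1 was called higher in gastrocnemius (-1.53 ± 0.49), Cidec was not called (1.09 ± 0.65), Lep and Retn were not tested, and Adipoq and Cfd were not analysed here. All 4 fibroblast genes were called higher in gastrocnemius, with sums of 19.59 to 19.86 against 17.22 to 17.52. The 1 Schwann cell gene was detected on all gastrocnemius arrays and on no liver array. Endothelium genes had no common direction, with Pecam1 called higher in gastrocnemius (-2.41 ± 0.3) and Kdr higher in liver (0.89 ± 0.22). Cdh5 was not called (-0.11 ± 0.41) and Vwf was not tested. The part of these cells in the results was not tested. A value without liver array L409 does not test it, since L552 with its acinar signal stays in.

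**Figure D1:**
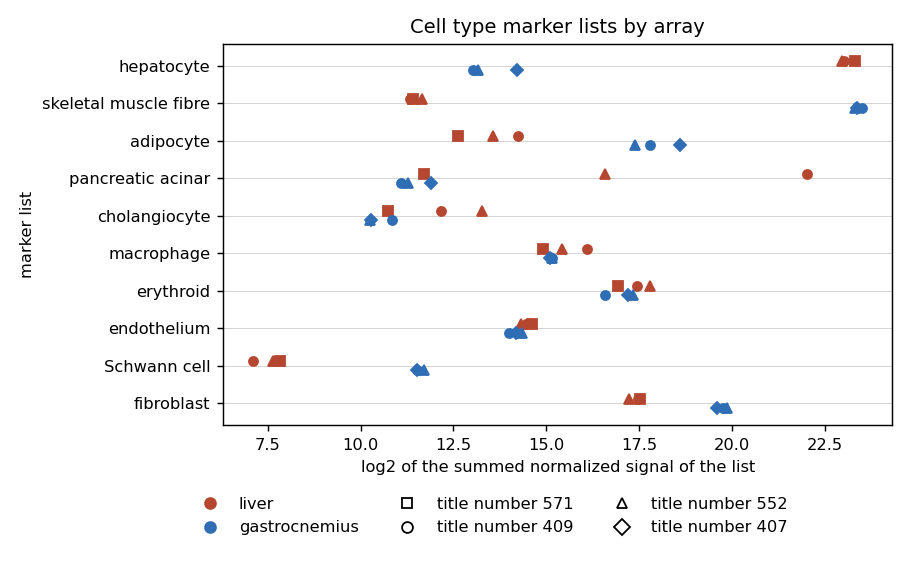
Log2 of the summed normalized signal (horizontal axis) of each marker list (vertical axis) on the 6 congenic arrays, with colour for tissue and symbol for title number. Liver arrays L409 and L552 lie at 22.02 and 16.57 for the pancreatic acinar genes, to the right of the other 4 arrays, which lie between 11.09 and 11.89.

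Of all 14788 probes tested 50.9% were called, 23.5% higher in liver and 27.4% higher in gastrocnemius. The larger direction turned with the scaling, since 46.1% of the called probes were higher in liver here and 51.1% under cyclic loess. Over the 8173 named genes among them 54.6% were called, with 24.4% higher in liver and 30.3% higher in gastrocnemius, so a call by itself sets no gene apart. These shares are the reference for the counts of every list below. The median difference over these genes was -0.12. The 17 lists of glucose, glycogen, amino acid and related control genes held 274 genes, of which 203 are named on the array and 184 were tested. Of the 184, 99 were called higher in liver, 48 higher in gastrocnemius and 37 were not called, with a median difference of 1.25. The 54 tested genes of the glucose lists gave 22 calls in each direction. The 20 tested glycogen genes gave 5 higher in liver and 14 higher in gastrocnemius, with a median of -2.42. The 95 tested amino acid genes gave 65 higher in liver and 7 higher in gastrocnemius, with a median of 3.04. The 3 liver and the 3 gastrocnemius values did not overlap in 150 of the 184 genes, while 63.1% of all named genes tested had no overlap. A gene tested here needed detection in only 1 tissue, which favours a difference in genes seen in a single tissue, so these counts support nothing by themselves. Of the list genes, 25 were detected on no gastrocnemius array and 15 on no liver array, while over all named genes tested these shares were 6.5% and 5.14%.

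**Figure D2:**
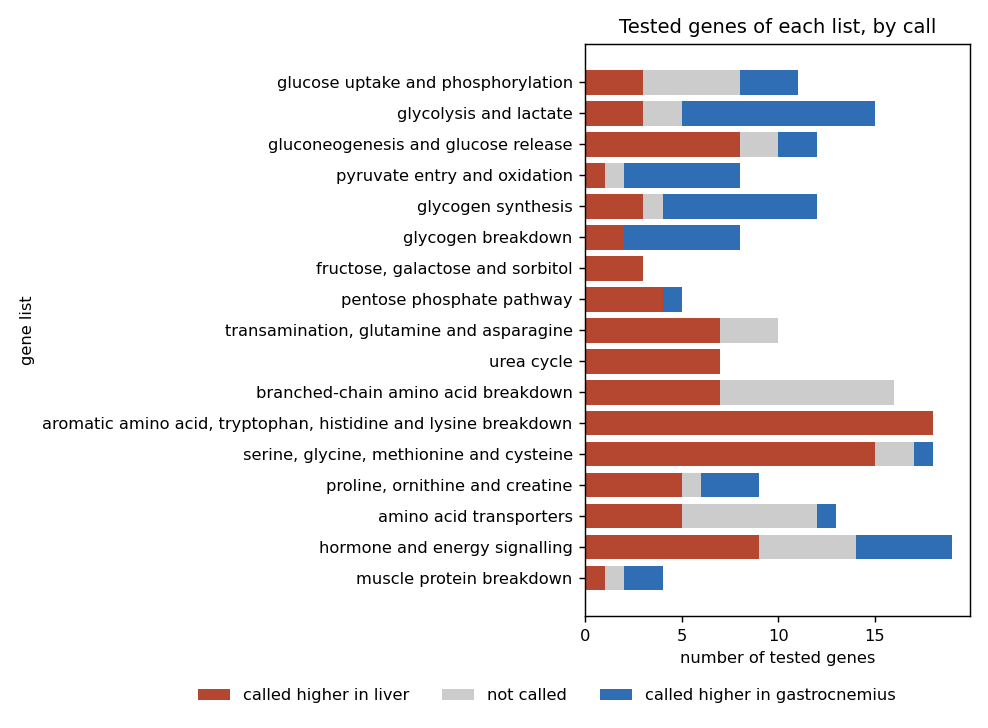
Number of tested genes (horizontal axis) in each of the 17 lists (vertical axis), divided into those called higher in liver, not called, and called higher in gastrocnemius. The urea cycle list and the list of aromatic amino acid, tryptophan, histidine and lysine breakdown hold calls higher in liver alone, with 7 of 7 and 18 of 18 genes. The share over all named genes tested was 24.4%.

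Of 19 pairs listed as a liver-form and a muscle-form gene, 8 had both members tested. In 7 of these the liver form was called higher in liver and the muscle form higher in gastrocnemius. Single named genes were called higher in liver in 24.4% and higher in gastrocnemius in 30.3%. The pairs were listed by known form, with earlier results of these data known, so this count is a description and no test. The exception was Gpt with Gpt2. Pfkl, Eno1, Pkm, Phkg2, Bcat2, Arg2, Mat2a and Prkag1 were among the pair members not analysed here, and Bcat1 was on the array but not tested.

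The glucose transporters of liver and muscle were each seen in their own tissue. Slc2a2, the low-affinity glucose transporter of hepatocytes, was at 16.09, 15.26 and 14.56 on liver arrays L571, L409 and L552, and at 8.77, 8.99 and 7.71 on gastrocnemius arrays Gas409, Gas407 and Gas552, where it was not detected. Slc2a4, the insulin-responsive transporter of muscle and fat, was at 6.9, 6.42 and 7.37 in liver, not detected, and at 15.89, 15.66 and 16.14 in gastrocnemius. In both genes the tissues were far apart on every array and did not overlap. Slc2a2 was at least 113-fold higher in liver (adjusted p = 3.15e-06) and Slc2a4 at least 497-fold higher in gastrocnemius (adjusted p = 5.58e-08). Hk2, the hexokinase that traps glucose in insulin-sensitive muscle, was at 7.5, 7.3 and 7.81 in liver and 16, 15.5 and 15.73 in gastrocnemius. No liver array detected Hk2, which was at least 295-fold higher in gastrocnemius (adjusted p = 3.9e-08).

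The list of glucose uptake and phosphorylation as a whole had no common direction. Of 11 tested genes, 3 were called higher in liver and 3 in gastrocnemius, with a median of -0.04. The fructose transporter Slc2a5 (4.18 ± 0.66 SE) and the urate transporter Slc2a9, at least 36-fold, were the other calls higher in liver. Slc2a12 was at least 10.9-fold higher in gastrocnemius. Gckr, a regulatory protein of hepatocyte glucose phosphorylation, was at 12.8, 12.54 and 12.64 in liver and at 14.21, 7.85 and 7.21 in gastrocnemius. The single high gastrocnemius value was that of Gas409, above all liver arrays. The difference of 2.91 ± 1.53 was not called, and without gastrocnemius array Gas409, the single gastrocnemius array that detected Gckr, the fitted difference against background was 5.17 ± 0.38 and called (limma adjusted p = 1.82e-05). Hk1, the widely expressed hexokinase, was detected on no liver array. Its fitted difference against background of -1.2 ± 0.53 was not called (limma adjusted p = 0.0859), so no bound is given for it. It was called without liver array L552 and without limma's intensity trend. The widely expressed transporter Slc2a1, at 1.05 ± 0.57, was not called either, and was called without gastrocnemius array Gas552 (1.61 ± 0.48). Slc2a8 and the ADP-dependent sugar kinase Adpgk differed by under their replicate spread, at -0.07 ± 0.32 and -0.04 ± 0.24.

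Glycolytic genes were mostly higher in gastrocnemius. Of 15 tested genes, 10 were called higher in gastrocnemius and 3 in liver, with a median of -2.05. Pfkm, the muscle phosphofructokinase that commits glucose to glycolysis, was at 10.2, 9.5 and 10.61 in liver and 17.85, 17.86 and 17.33 in gastrocnemius. Pgam2, the muscle phosphoglycerate mutase, was at 7.29, 7.2 and 7.67 in liver, not detected, and 19.11, 18.94 and 17.99 in gastrocnemius. Eno3, the muscle enolase, was at 12.67, 11.65 and 11.65 in liver and 20.82, 20.73 and 20.73 in gastrocnemius. All 3 genes separated the tissues without overlap and were detected in liver for Pfkm and Eno3 alone. The differences were -7.57 ± 0.31 for Pfkm and -8.77 ± 0.29 for Eno3, and Pgam2 was at least 2510-fold higher in gastrocnemius (adjusted p = 1.74e-08). Pgam1, the mutase form of most other tissues, went the other way, with 15.16, 14.75 and 15.26 in liver and 11.99, 12.19 and 12.07 in gastrocnemius, a difference of 2.97 ± 0.22.

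Among the other glycolytic genes, Aldoa (-2.05 ± 0.28), the muscle aldolase, and Pgk1 (-1.47 ± 0.2), phosphoglycerate kinase, were higher in gastrocnemius by less. Pfkfb3, which makes an activator of phosphofructokinase, was not detected in liver and at least 32.2-fold higher in gastrocnemius. Pfkfb4, of the same family, was at -5.01 ± 0.41. Aldoc, known as the brain aldolase, was at least 8.98-fold higher in liver and detected on no gastrocnemius array. Pklr, which encodes pyruvate kinase of liver and red cells, was at 11.16, 10.91 and 12.09 in liver and 11, 9.82 and 12.48 in gastrocnemius. The Pklr ranges overlapped, and the difference of 0.29 ± 0.62 was not called. Pfkp, the platelet phosphofructokinase, was not called either, at -0.63 ± 0.41, but was called without liver array L571 (-1.03 ± 0.35).

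Both lactate dehydrogenase subunits were higher in gastrocnemius, and the lactate carriers went opposite ways. Ldhb, the lactate dehydrogenase subunit typical of heart and oxidative fibres, was at 10.48, 11.23 and 10.91 in liver and 16.92, 17.11 and 16.94 in gastrocnemius, a difference of -6.11 ± 0.24. Ldha, the subunit typical of glycolytic muscle and of liver, differed by -1.13 ± 0.25 (adjusted p = 0.00464), and cyclic loess scaling ended its call at -0.31 ± 0.23 (adjusted p = 0.281). Slc16a3, the lactate exporter of glycolytic muscle, was at -6.55 ± 0.27. Slc16a1, the lactate carrier used for uptake in many tissues, was at 12.93, 11.12 and 11.93 in liver and 10.44, 9.7 and 11.3 in gastrocnemius. The ranges overlapped, and its call (1.51 ± 0.53, adjusted p = 0.0408) was lost without liver array L571 or L552, without gastrocnemius array Gas409 or Gas407, and in 3 further alternatives.

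Genes of glucose production were higher in liver. Of 12 tested genes, 8 were called higher in liver and 2 in gastrocnemius, with a median of 3.6. G6pc, the glucose-6-phosphatase that frees glucose for release, was at 18.83, 18.24 and 19.14 in liver and at 7.92, 7.49 and 7.64 in gastrocnemius, where it was not detected. It was at least 2120-fold higher in liver (adjusted p = 8.44e-09). Slc37a4, the carrier that brings glucose 6-phosphate to that enzyme, was at 15.8, 15.41 and 15.71 in liver and 13.82, 13.8 and 13.01 in gastrocnemius, 4.28-fold higher. G6pc3, the widely expressed paralogue, was higher in gastrocnemius, at -2.44 ± 0.24.

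Fructose bisphosphatase showed the pattern of a liver form and a muscle form. Fbp1, the liver form, was at 17.59, 18.24 and 17.97 in liver and 9.03, 7.19 and 8.56 in gastrocnemius. Fbp2, the muscle form, was at 8.95, 10.74 and 10.22 in liver and 15.3, 15.19 and 15.84 in gastrocnemius. Neither pair of ranges overlapped, and the differences were 9.67 ± 0.44 and -5.47 ± 0.43. Both genes lie on chromosome 13.

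Pck1, the cytosolic carboxykinase that starts gluconeogenesis from oxaloacetate and also serves glycerol synthesis in fat cells, was at 20.17, 19.97 and 19.97 in liver. In gastrocnemius it was at 13.82, 15.33 and 12.22, detected on each. The liver values were close together and the gastrocnemius values were spread over more than 3 log2 units, without overlap, and the difference was 6.25 ± 0.63 (adjusted p = 4.66e-05). Gastrocnemius arrays Gas407, Gas409 and Gas552 had the same order for the summed adipocyte genes as for Pck1, with sums of 18.59, 17.79 and 17.39. These sums are nearly all Fabp4, and the part of fat cells in the Pck1 signal was not tested. Pck2, the mitochondrial form, was at 4.4 ± 0.31 and Pcx, pyruvate carboxylase, at 2.8 ± 0.22, both with no overlap.

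Of the regulators in this list, Gcgr, the glucagon receptor, was at 13.34, 13.63 and 13.52 in liver and 8.13, 7.99 and 7.83 in gastrocnemius, not detected there and at least 45.7-fold higher in liver. Creb3l3, a fasting-responsive transcription factor of liver, was at 6.84 ± 0.24. Ppargc1a, a coactivator active in both tissues, and Foxo1, the insulin-inhibited forkhead factor, were not called, at 0.23 ± 0.38 and -0.04 ± 0.31. Hnf4a and Crtc2 were not analysed here.

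**Figure D3:**
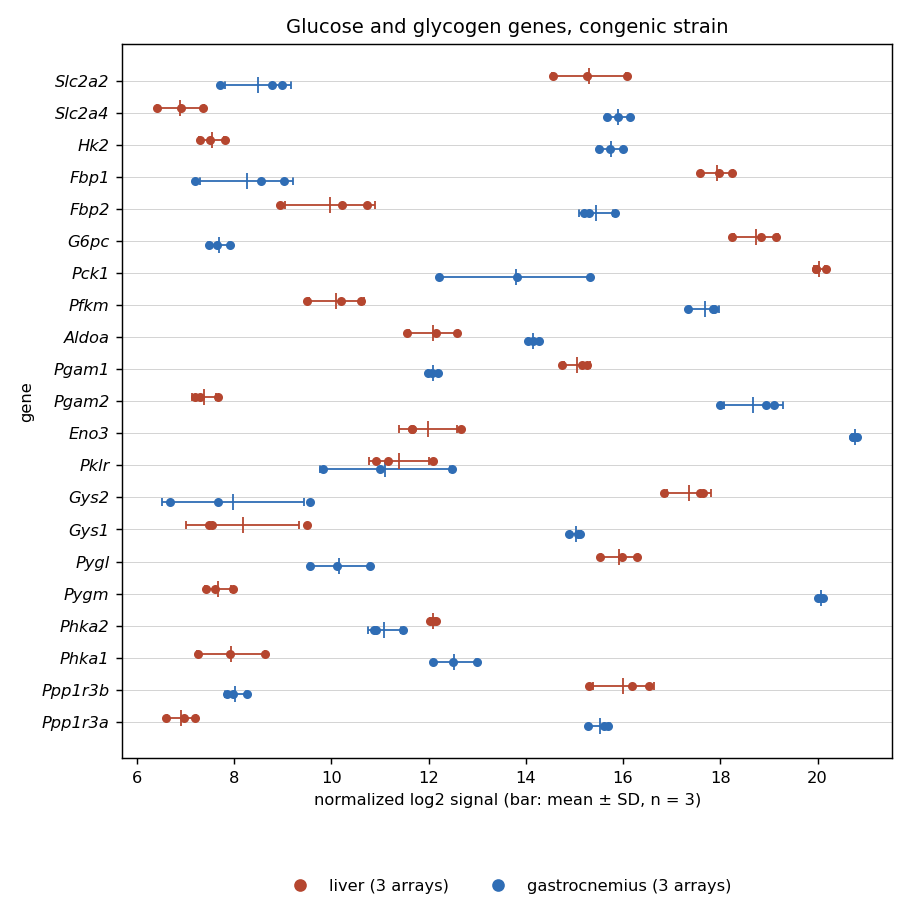
Normalized log2 signal (horizontal axis) of 21 glucose and glycogen genes (vertical axis) on each congenic array, with mean and SD over 3 arrays per tissue. Tissues are apart for all genes shown except Pklr, whose liver values of 10.91 to 12.09 fall within its gastrocnemius values of 9.82 to 12.48.

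Pyruvate oxidation genes were higher in gastrocnemius in 6 of 8 tested genes, with 1 higher in liver and a median of -1.52. Pdk4, the fasting-induced kinase that turns off pyruvate dehydrogenase, was at 12.39, 12.52 and 13.75 in liver and 19.18, 19.53 and 19.91 in gastrocnemius. The tissues did not overlap, and Pdk4 was 100-fold higher in gastrocnemius (adjusted p = 8.31e-07). Pdk2, another kinase of this family, was at -3.04 ± 0.27. The dehydrogenase subunits Pdha1 (-1.68 ± 0.26) and Pdhb (-1.62 ± 0.2) and the binding protein Pdhx (-1.41 ± 0.28) were lower in liver by similar amounts. Dld, the subunit shared with other dehydrogenases, was at -0.72 ± 0.21. Its call was lost without liver array L409 or L552 or any 1 gastrocnemius array (-0.76 to -0.61), and under cyclic loess it was at -0.24 ± 0.22. Pdk1 was higher in liver at 1.39 ± 0.31, and Pdk3 was not called, with 13.18 on liver array L571 against 9.23 and 10.16 on the other liver arrays.

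In glycogen synthesis, 8 of 12 tested genes were called higher in gastrocnemius and 3 in liver, with a median of -2.24. Gys2, the liver glycogen synthase, was at 17.58, 17.64 and 16.84 in liver and 9.56, 7.67 and 6.69 in gastrocnemius. Gys1, the muscle synthase, was at 7.48, 9.51 and 7.54 in liver and 15.11, 14.89 and 15.07 in gastrocnemius. The tissues did not overlap for either gene, with differences of 9.38 ± 0.63 and -6.85 ± 0.51. Gys2 was detected on 1 gastrocnemius array, so its difference rests largely on background values there. Gys1 was detected in liver on L409 alone, and without L409 the fitted difference against background was -7.47 ± 0.26. Gyg, glycogenin, on which a new glycogen particle is built, was at 10.99, 11.15 and 11.41 in liver and 17.75, 17.66 and 17.87 in gastrocnemius, a difference of -6.58 ± 0.2.

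The targeting subunits that bring protein phosphatase 1 to glycogen divided in the same manner. Ppp1r3b, the subunit abundant in liver, was at 16.53, 15.3 and 16.19 in liver and 8.26, 7.97 and 7.85 in gastrocnemius, not detected there. Ppp1r3a, the muscle subunit, was at 6.96, 6.59 and 7.19 in liver, not detected, and 15.68, 15.6 and 15.28 in gastrocnemius. Ppp1r3b was at least 253-fold higher in liver and Ppp1r3a at least 382-fold higher in gastrocnemius. Ppp1r3c, a subunit found in many tissues, was at 13.99, 11.9 and 14.2 in liver and 17.92, 16.68 and 17.89 in gastrocnemius. Its lowest value in liver was on L409, with no overlap between tissues. The difference was -4.13 ± 0.59, and -3.38 ± 0.39 without liver array L409.

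The remaining glycogen synthesis genes differed by less. Pgm1, phosphoglucomutase (-2.7 ± 0.24), and Ugp2, which makes UDP-glucose (-2.25 ± 0.28), were higher in gastrocnemius, as was the synthase kinase Gsk3b (-1.12 ± 0.2). Nhlrc1, the ubiquitin ligase malin, was at least 4.7-fold higher in gastrocnemius. Stbd1, which tethers glycogen to membranes, was higher in liver at 1.7 ± 0.26. Gbe1, the branching enzyme, was at 12.01, 11.69 and 11.69 in liver and 11.9, 11.75 and 11.49 in gastrocnemius, and with overlapping ranges and a difference of 0.08 ± 0.25 it was not called.

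All 8 tested glycogen breakdown genes were called, 6 higher in gastrocnemius and 2 in liver, with a median of -3.41. Pygm, muscle glycogen phosphorylase, was at 7.43, 7.61 and 7.97 in liver, not detected, and 20.07, 20.01 and 20.11 in gastrocnemius. Pygl, liver phosphorylase, was at 16.28, 15.52 and 15.97 in liver and 10.11, 10.79 and 9.57 in gastrocnemius, detected on all 6 arrays. The 3 Pygm values of each tissue lay close together with a wide gap between tissues. Pygm was at least 5380-fold higher in gastrocnemius (limma adjusted p = 1.95e-09, against liver background), and Pygl was 54.5-fold higher in liver (limma adjusted p = 1.36e-06). Pygb, the brain phosphorylase, was at least 6.02-fold higher in gastrocnemius.

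Phosphorylase kinase, which switches phosphorylase on, showed the same division in its alpha subunits. Phka1, the muscle alpha subunit, was at 7.91, 7.26 and 8.64 in liver, not detected, and 12.99, 12.5 and 12.1 in gastrocnemius, at least 24-fold higher there. Phka2, the liver alpha subunit, was at 12.03, 12.1 and 12.15 in liver and 10.87, 11.48 and 10.92 in gastrocnemius. The Phka2 difference of 1 ± 0.27 was small against the others but without overlap (adjusted p = 0.0133), and it lost its call without gastrocnemius array Gas409 (0.89 ± 0.32, adjusted p = 0.0562). Phkg1, the muscle catalytic subunit, was at least 106-fold higher in gastrocnemius and the shared beta subunit Phkb was at -4.23 ± 0.37. Gaa, the lysosomal glucosidase, was at -1.39 ± 0.23.

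The 250 bases before the annotated start of 5 genes with large tissue differences are shown from RefSeq (GRCm38.p6), 5′ to 3′ on the gene's strand. These genes of glucose production, glycogen handling and glycolysis were described above. They are G6pc, on chr11:101367466-101367715 (plus strand), Pck1, on chr2:173152823-173153072 (plus), Pygm, on chr19:6384158-6384407 (plus), Ppp1r3a, on chr6:14755275-14755524 (minus), and Pgam2, on chr11:5803797-5804046 (minus). Capitals mark matches on either strand to 6 searched motifs, and no matches overlapped in these 5 windows. The motifs were the E-box of muscle factors CAGCTG, the MEF2 form CTA and TAG with 4 bases between, the cAMP response half-site ACGTCA, the HNF1 form GTTAAT and ATT with 1 base between, the C/EBP form TTGCNNAA and the HNF4 form CAAAGTCCA.
G6pc: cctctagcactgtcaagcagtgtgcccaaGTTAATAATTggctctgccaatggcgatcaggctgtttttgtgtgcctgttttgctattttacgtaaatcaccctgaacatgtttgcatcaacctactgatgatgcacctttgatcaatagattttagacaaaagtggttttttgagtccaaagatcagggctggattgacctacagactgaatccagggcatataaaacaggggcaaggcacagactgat
Pck1: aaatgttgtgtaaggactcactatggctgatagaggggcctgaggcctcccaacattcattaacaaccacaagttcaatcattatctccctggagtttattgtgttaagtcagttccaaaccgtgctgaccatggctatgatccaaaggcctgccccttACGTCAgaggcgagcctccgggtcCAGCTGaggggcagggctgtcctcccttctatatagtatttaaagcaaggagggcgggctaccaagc
Pygm: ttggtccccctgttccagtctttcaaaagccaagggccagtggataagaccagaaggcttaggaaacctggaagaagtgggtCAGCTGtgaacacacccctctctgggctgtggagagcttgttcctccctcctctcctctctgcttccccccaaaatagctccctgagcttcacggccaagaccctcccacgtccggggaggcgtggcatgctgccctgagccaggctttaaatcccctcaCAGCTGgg
Ppp1r3a: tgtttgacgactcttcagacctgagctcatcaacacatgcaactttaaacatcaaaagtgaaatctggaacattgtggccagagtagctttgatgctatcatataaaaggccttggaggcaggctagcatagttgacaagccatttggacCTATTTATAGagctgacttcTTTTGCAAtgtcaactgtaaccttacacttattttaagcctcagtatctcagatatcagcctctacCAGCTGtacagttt
Pgam2: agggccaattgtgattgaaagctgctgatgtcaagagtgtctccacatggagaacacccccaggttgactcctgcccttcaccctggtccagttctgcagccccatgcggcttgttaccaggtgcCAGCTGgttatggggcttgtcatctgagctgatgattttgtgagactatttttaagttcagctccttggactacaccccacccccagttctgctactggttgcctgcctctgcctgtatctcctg

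The G6pc window held 1 match, to HNF1 at base 30. The Pck1 window held the cAMP half-site at base 160 and an E-box at base 184. Pygm had E-boxes at bases 83 and 243, Pgam2 an E-box at base 126, and Ppp1r3a matches to MEF2 at base 151, C/EBP at base 171 and the E-box at base 237. Over the 27025 genes with a window, the E-box was found in 12.8%, MEF2 in 3.23%, the half-site in 6.56%, HNF1 in 0.411%, C/EBP in 9.55% and HNF4 in 0.381%. Among the 45 list genes called higher in gastrocnemius that have a window, the E-box was found in 12 and MEF2 in 4. The half-site and C/EBP were found in 7 each, and HNF1 and HNF4 in 0. Over all named genes called higher in gastrocnemius, 2007 with a window, the E-box was in 12.1%, MEF2 in 3.29% and the half-site in 10.5%. C/EBP was in 7.42% of them, HNF1 in 0.0997% and HNF4 in 0.299%. Among the 83 list genes called higher in liver, the E-box was found in 14, HNF1 in 4 and HNF4 in 1. The half-site was found in 5, C/EBP in 9 and MEF2 in 0. Over all named genes called higher in liver, 1619 with a window, the E-box was in 11.1%, HNF1 in 0.926% and HNF4 in 0.741%. The half-site was in 7.35% of them, C/EBP in 9.2% and MEF2 in 2.41%. A match is a match of letters and not a binding site, and no test was made of these counts.

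Fructose and pentose phosphate genes leaned toward liver. Khk, ketohexokinase, was at 15.17, 16.14 and 16.4 in liver and 12.25, 12.54 and 12.26 in gastrocnemius, a difference of 3.55 ± 0.32 without overlap. Tkfc, which handles the glyceraldehyde made from fructose, was at 5.19 ± 0.61 and the galactose mutarotase Galm at 4.52 ± 0.27. Of 5 tested pentose phosphate genes 4 were called higher in liver, with H6pd of the endoplasmic reticulum at 2.38 ± 0.19, transketolase Tkt at 1.54 ± 0.34 and the epimerase Rpe at 1.38 ± 0.36. Rpia, the ribose phosphate isomerase, was higher in gastrocnemius at -3.05 ± 0.39. Pgls, the lactonase, was called higher in liver (0.97 ± 0.34, adjusted p = 0.0402). That call was lost with the title number as a block (adjusted p = 0.063), and also without liver array L409 or L552 or any 1 gastrocnemius array.

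The urea cycle was called higher in liver in 7 of 7 tested genes, with a median of 7.42 and no overlap in any. Of all named genes tested, 24.4% were called higher in liver and 63.1% had no overlap. No gastrocnemius array detected 3 of the 7. Arg1, the arginase that releases urea, was at 19.1, 18.69 and 19.31 in liver and 7.76, 8.81 and 7.77 in gastrocnemius. Ass1, argininosuccinate synthase, was at 19.76, 19.64 and 19.69 in liver and 10.05, 10.73 and 10.92 in gastrocnemius. Otc, which makes citrulline in mitochondria, was at 14.69, 15.88 and 14.55 in liver and 7.38, 8.2 and 7.27 in gastrocnemius. Arg1 and Otc were detected on no gastrocnemius array, and Ass1 was detected on all 3. Arg1 was at least 1940-fold higher in liver, Otc at least 172-fold and Ass1 560-fold (adjusted p = 1.45e-08).

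Asl, the lyase that splits argininosuccinate (7.34 ± 0.21), and the mitochondrial carriers Slc25a13 for aspartate (8.52 ± 0.45) and Slc25a15 for ornithine (6.04 ± 0.51) were also higher in liver. Nags, which makes the activator of the first step, was at least 24.9-fold higher. Cps1 was not analysed here.

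The breakdown of aromatic amino acids, tryptophan, histidine and lysine was called higher in liver in 18 of 18 tested genes, with a median of 7 and no overlap. The shares over all named genes tested were 24.4% called higher in liver and 63.1% without overlap. No gastrocnemius array detected 6 of the 18, and 5 calls higher in liver remained when detection on all 6 arrays was required. Tat, tyrosine aminotransferase, was at 19.73, 18.84 and 19.3 in liver and 8.27, 7.83 and 9.13 in gastrocnemius. Hpd, the next enzyme of tyrosine breakdown, was at 19.5, 19.85 and 19.85 in liver and 7.07, 8.73 and 8.26 in gastrocnemius. Tdo2, the first enzyme of tryptophan breakdown, was at 19.3, 19.01 and 18.84 in liver and 8.22, 8.23 and 7.45 in gastrocnemius. No gastrocnemius array detected Hpd or Tdo2, 1 detected Tat, and the tissues were far apart for all 3 genes. Tat was at 10.88 ± 0.36, Hpd at least 3360-fold higher in liver and Tdo2 at least 2170-fold.

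Along the same tyrosine route, Hgd was at least 909-fold higher in liver, and Fah, the last enzyme, was detected on all gastrocnemius arrays and at 6.84 ± 0.29. In the kynurenine route, Kmo was at 7.6 ± 0.28, Afmid at 4.42 ± 0.64 and Kynu at least 127-fold higher. Ido2, a second tryptophan dioxygenase, was at 9.15, 10.31 and 9.5 in liver and 7.22, 7.17 and 8.53 in gastrocnemius. Its call (2.01 ± 0.55) was lost without liver array L409, where it was highest (1.68 ± 0.64, adjusted p = 0.0654). In histidine breakdown, Hal was at 7.05 ± 0.73, Uroc1 at least 23.1-fold and Ftcd at least 638-fold higher, and in lysine breakdown Aass was at 8.48 ± 0.48, Aldh7a1 at 4.22 ± 0.21 and Gcdh at 3.54 ± 0.19. The pterin cofactor genes Gch1 (6.21 ± 0.27), Pcbd1 (6.96 ± 0.87) and Qdpr (2.4 ± 0.18) were higher as well.

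In the list of serine, glycine, methionine and cysteine, 15 of 18 tested genes were called higher in liver and 1 in gastrocnemius, with a median of 6.24. Mat1a, the liver enzyme that makes S-adenosylmethionine, was at 21.28, 20.54 and 20.87 in liver and 8.78, 7.88 and 7.5 in gastrocnemius. Bhmt, which remakes methionine from homocysteine with betaine, was at 20.42, 19.14 and 20.09 in liver and 7.53, 6.5 and 6.68 in gastrocnemius. Neither gene was detected in gastrocnemius, and both were at high values on every liver array. Mat1a was at least 7360-fold and Bhmt at least 7330-fold higher in liver. Mat2b, the regulatory subunit of the form found outside liver, was the call higher in gastrocnemius, with 13.56, 13.69 and 13.62 in liver and 15.09, 14.93 and 14.79 in gastrocnemius, a difference of -1.31 ± 0.19.

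Gnmt, which uses up S-adenosylmethionine, was at 9.54 ± 0.39, and Ahcy, present on all 6 arrays, at 4.64 ± 0.2. The enzymes that turn homocysteine into cysteine and taurine, Cbs (7.24 ± 0.3), Cth (8.76 ± 0.7), Cdo1 (7.3 ± 0.42) and Csad (5.25 ± 0.3), were all higher in liver. Bhmt2, Dmgdh and Sardh were detected on no gastrocnemius array, with bounds of 270-fold, 702-fold and 261-fold. The glycine cleavage gene Gldc was at 5.17 ± 0.41 and the serine hydroxymethyltransferases Shmt1 and Shmt2 at 4.19 ± 0.36 and 2.64 ± 0.25. Phgdh and Psat1, which make serine from a glycolytic intermediate, were not called, at -0.29 ± 0.41 and -1.03 ± 0.55. Psat1 was at 8.61, 10.05 and 8.43 in liver, highest on L409, and without that array it was called higher in gastrocnemius at -1.53 ± 0.52 (adjusted p = 0.0433).

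Transamination genes were called higher in liver in 7 of 10, with none higher in gastrocnemius and a median of 2.48. Gpt, the cytosolic alanine aminotransferase, was at 16.97, 16.91 and 16.74 in liver and 13.5, 13.5 and 13.6 in gastrocnemius, a difference of 3.34 ± 0.18 without overlap. Gpt2, the mitochondrial form, was at 17.86, 16.48 and 16.58 in liver and 15.55, 15.43 and 16.71 in gastrocnemius. Those ranges overlapped through gastrocnemius array Gas552, and the difference of 1.08 ± 0.44 was not called (adjusted p = 0.0699) but was called without that array (1.49 ± 0.42, adjusted p = 0.0197). Agxt, the peroxisomal enzyme that disposes of glyoxylate, was at 9.13 ± 0.33, Glud1, glutamate dehydrogenase, at 2.86 ± 0.21 and Got1, the cytosolic aspartate aminotransferase, at 0.79 ± 0.2. The Got1 call was lost without gastrocnemius array Gas407 (0.74 ± 0.27, adjusted p = 0.053). Kyat1 (2.1 ± 0.27) and Kyat3 (3.14 ± 0.38), the kynurenine aminotransferases, were higher in liver too, and Aadat at least 225-fold.

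Glul, glutamine synthetase, which both tissues use to carry nitrogen, was at 17.89, 18.13 and 18.24 in liver and 17.89, 18.02 and 19.53 in gastrocnemius. Gastrocnemius array Gas552 stood above the others, and the difference of -0.4 ± 0.4 was not called. Asns, asparagine synthetase, abundant in pancreas, was at 10.71, 11.87 and 10.82 in liver and 10.12, 10.87 and 8.5 in gastrocnemius. It was not called with liver array L409, the highest (1.3 ± 0.61), or without it (0.93 ± 0.66), and was called without gastrocnemius array Gas407 (1.83 ± 0.59, adjusted p = 0.0335).

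Genes of branched-chain amino acid breakdown had small differences. Of 16 tested genes, 7 were called higher in liver and none in gastrocnemius, with a median of 0.52. Bckdha, a subunit of the dehydrogenase that commits these amino acids, was at 16.13, 15.99 and 15.9 in liver and 15.72, 15.78 and 16.04 in gastrocnemius, with overlap and a difference of 0.17 ± 0.19. Bckdhb, its partner subunit, was at 13.89, 13.85 and 13.37 in liver and 12.01, 12.34 and 12.56 in gastrocnemius, at 1.4 ± 0.25 without overlap. Dbt, the core subunit, was at 1.49 ± 0.39, and Ppm1k, the phosphatase that activates the complex, was at least 11.6-fold higher in liver. Downstream, Hsd17b10 was at 2.06 ± 0.19, Aldh6a1 at 1.13 ± 0.27, Acad8 at 0.79 ± 0.21 and Pccb at 0.73 ± 0.23. The Pccb call was lost without any 1 gastrocnemius array (0.63 to 0.78).

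The 9 genes of this list that were not called, Bckdha, Ivd, Mccc1, Auh, Acadsb, Hibch, Hibadh, Pcca and Mcee, lay between -0.74 ± 0.3 for Auh and 0.55 ± 0.22 for Hibch. Ivd was called without liver array L552 (0.73 ± 0.24). Hibch was called under median scaling (0.6 ± 0.21), cyclic loess (0.91 ± 0.22) and the authors' deposited values (0.68 ± 0.22). The number called depended on the scaling. With cyclic loess 12 of the 16 were called higher in liver, with a median of 0.89. Auh, at 11.27, 12.26 and 11.46 in liver and 12.34, 12.4 and 12.48 in gastrocnemius, was called higher in gastrocnemius without liver array L409 (-1.04 ± 0.26, adjusted p = 0.0131).

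Creatine kinases and a polyamine gene were higher in muscle. Ckm, the muscle creatine kinase, was at 9.26, 7.97 and 7.93 in liver and 20.68, 20.56 and 20.39 in gastrocnemius. Ckmt2, the mitochondrial kinase of striated muscle, was at 10.19, 9.52 and 8.29 in liver and 19.91, 19.8 and 19.84 in gastrocnemius. The tissues were far apart on every array, with differences of -12.16 ± 0.35 and -10.51 ± 0.41. Odc1, which makes the first polyamine from ornithine, was at -2.18 ± 0.27. Gamt, which completes creatine synthesis, was at 11.99, 13.55 and 12.72 in liver and 10.94, 10.46 and 10.4 in gastrocnemius, at 2.15 ± 0.4 and 1.75 ± 0.36 without liver array L409.

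Gatm, which starts creatine synthesis and is abundant in pancreas and kidney, was at 9.78, 11.52 and 10.18 in liver and 10.17, 10.29 and 10.13 in gastrocnemius. Liver array L409 alone lay above the rest, and the difference was 0.3 ± 0.46 with it and -0.21 ± 0.38 without it, not called either way. Slc6a8, the creatine transporter, was called higher in liver (1.47 ± 0.5), with overlap. The call was lost without liver array L409 (1.13 ± 0.53, adjusted p = 0.121), without liver array L552 or gastrocnemius array Gas409 or Gas552, and with the title number as a block (adjusted p = 0.0599). The proline and ornithine genes Prodh (3.29 ± 0.25), Oat (2.78 ± 0.21) and Prodh2, at least 19.8-fold, were higher in liver.

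**Figure D4:**
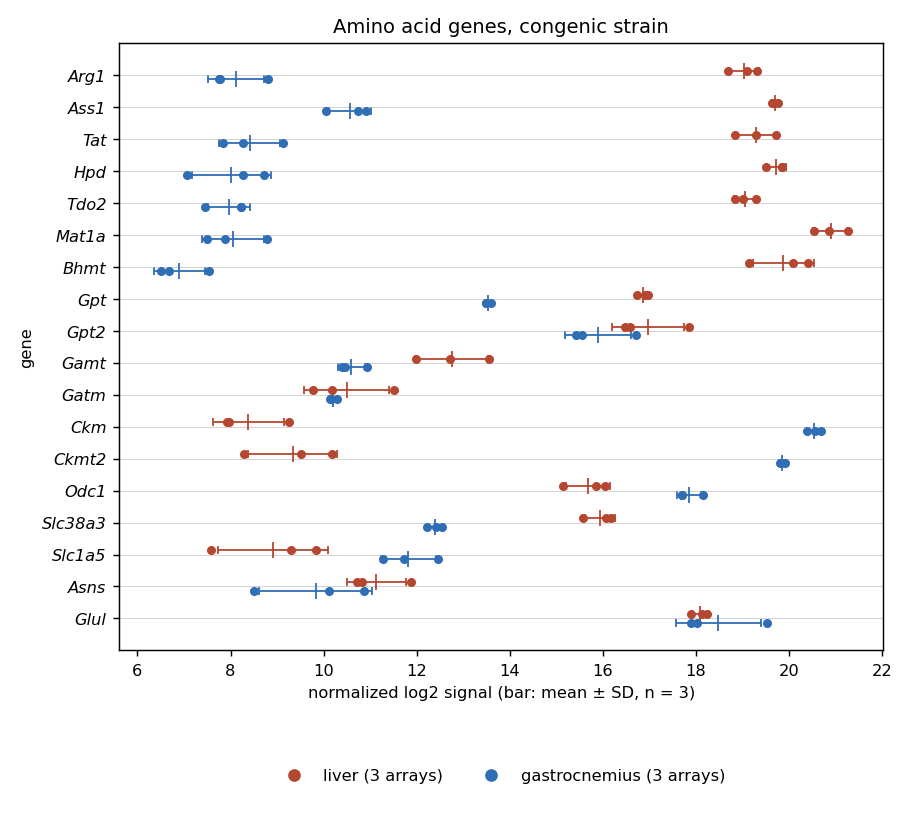
Normalized log2 signal (horizontal axis) of 18 amino acid and creatine genes (vertical axis) on each congenic array, with mean and SD over 3 arrays per tissue. Liver lies to the right for genes of breakdown and the urea cycle such as Mat1a (20.54 to 21.28 against 7.5 to 8.78), to the left for Ckm and Ckmt2, and overlaps gastrocnemius for Gpt2, Gatm, Asns and Glul.

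Of 13 tested amino acid transporters, 5 were called higher in liver, 1 in gastrocnemius and 7 were not called, with a median of 0.66. Slc38a3, a glutamine carrier of hepatocytes, was at 16.08, 16.18 and 15.58 in liver and 12.22, 12.41 and 12.54 in gastrocnemius. Slc38a4, a neutral amino acid carrier, was at 18.72, 18.32 and 18.05 in liver and 14.65, 14.78 and 15.1 in gastrocnemius. Both were without overlap, at 3.56 ± 0.23 and 3.52 ± 0.23. The glutamate transporter Slc1a2 (4.16 ± 0.56), the mitochondrial glutamate carrier Slc25a22 (3.68 ± 0.39) and the cationic amino acid transporter Slc7a2 (3.04 ± 0.54) were the other calls. Slc1a5, a neutral amino acid exchanger, was at 7.58, 9.31 and 9.83 in liver and 11.72, 12.46 and 11.28 in gastrocnemius, at -2.92 ± 0.59. Slc3a2, Slc7a1, Slc7a5, Slc38a2, Slc38a9, Slc43a2 and Slc6a6, with differences from -1.01 to 0.95, were not called. Slc38a5 was not tested, being detected on liver array L409 alone, at 12.39 against 7.3 to 8.92 on the other 5 arrays.

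Among the 19 tested hormone and energy signalling genes, 9 were called higher in liver, 5 in gastrocnemius and 5 were not called, with a median of 0.37. Igfbp1, an insulin-suppressed secreted protein of liver, was at 19.04, 17.74 and 19.52 in liver and 7.39, 7.65 and 7.74 in gastrocnemius, at least 2310-fold higher in liver. Fgf21, a fasting hormone, was at 12.07, 12.52 and 13.78 in liver and 7.12, 7.35 and 7.36 in gastrocnemius, at least 45.6-fold higher in liver. Both were detected on every liver array and no gastrocnemius array. The transcription factors Cebpa (3.24 ± 0.42), Klf15 (1.5 ± 0.31), Mlxipl (1.13 ± 0.21) and its partner Mlx (1 ± 0.24) were higher in liver.

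The AMP-activated kinase, a sensor of low energy, differed by subunit. Prkab2 was at 7.71, 7.09 and 7.49 in liver and 13.42, 13.38 and 13.05 in gastrocnemius, and Prkag3, the gamma subunit of glycolytic muscle, was at 8.42, 8.69 and 8.14 and at 12.6, 12.89 and 12.31. Neither was detected in liver, and they were at least 57.8-fold and 18.2-fold higher in gastrocnemius. The catalytic subunit Prkaa2 was at -2.05 ± 0.25, while Prkab1 (0.71 ± 0.23) and Prkag2 (1.23 ± 0.22) were higher in liver. The Prkab1 call was lost without liver array L571 or L552 or gastrocnemius array Gas409 or Gas407 (0.57 to 0.67). Tbc1d1, which restrains glucose transporter traffic in muscle, was at -2.68 ± 0.38 and Akt2, the insulin-responsive kinase, at -1.27 ± 0.3. Irs1, Pik3r1, Akt1, Foxo1 and Cebpb were not called, with differences from -1.23 to 0.37. Irs1 was called without gastrocnemius array Gas409 (-1.56 ± 0.51) and without limma's intensity trend (-1.23 ± 0.39). Cebpb was called higher in liver under cyclic loess (0.99 ± 0.24), and Insr was not analysed here.

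Of 4 tested genes of muscle protein breakdown, 2 were called higher in gastrocnemius and 1 in liver. Fbxo32, the ubiquitin ligase atrogin, was at 7.63, 9.15 and 7.95 in liver and 15.76, 16.57 and 17.14 in gastrocnemius, a difference of -8.25 ± 0.46. Mstn, myostatin, which limits muscle mass, was at least 94.1-fold higher in gastrocnemius. Klf15, given above, was the call higher in liver (1.5 ± 0.31), and Foxo1 was not called.

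Several members were among the genes with the largest differences over all named genes detected on at least 1 array of each tissue. This rule leaves out members given as bounds, such as Bhmt, Mat1a and Pygm. The 10 highest in liver were Ttr, Pzp, Apoa2, Tat, Acaa1b, Fgb, Itih3, Kng2, Apof and Rbp4, from 12.39 for Ttr down to 9.96 for Rbp4. Tat is the list member among them. Each of these 10 was detected on only 1 gastrocnemius array, so the differences rest largely on background values there. The 10 highest in gastrocnemius were Ckm, Mylpf, Tnnc2, Actn3, Ckmt2, Srl, Eef1a2, Asb5, Myom1 and Txlnb, from -12.16 for Ckm to -8.77 for Txlnb, with the creatine kinases Ckm and Ckmt2 among them. Only Srl was detected on every liver array, so the other differences rest partly on background values in liver.

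The tissue differences were next set beside those of the B6 strain, from 3 other liver and 3 other gastrocnemius arrays, to ask whether the congenic tissue difference departs from that of the background strain. In a limma fit of the 12 arrays, 0 of 17272 probes (0%) passed for the strain difference of the tissue difference, with a lowest adjusted p of 0.495. The tissue difference itself was called in 47.4% of these probes in each strain. At an unadjusted p under 0.05 there were 611 probes, 3.54%. Without congenic liver array L571, which leaves the arrays with acinar signal, there was 1 call, Tff2, at 8.35 ± 0.84 (adjusted p = 0.00278). Tff2 was at 9.72, 15.06 and 14.08 in congenic liver, detected on L409 and L552, and its difference was 5.65 ± 1.33 without L409, not called (adjusted p = 0.901). Without congenic gastrocnemius array Gas552 there were 3, among them Vnn1 at -3.72 and H2-Q10 at -3.04. Of the 147 list genes called in the congenic strain, 143 were called in the same direction in B6 and 0 in the opposite one. The other 4 were Got1, Ldha, Pgls and Slc6a8. The share was 97.3%, against 89.2% of all 4465 named genes called, and the shares were not matched for the size of the difference. The congenic calls here are those of the fit of 6 arrays, and the B6 calls those of the fit of 12.

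Of 187 list genes in that fit, 10 had an unadjusted p under 0.05 and none passed. The 5 of smallest p are given as values. Cdo1 differed by 7.27 ± 0.38 in the congenic and 9.58 ± 0.38 in B6, with gastrocnemius at 10.18, 11.4 and 9.5 in the congenic and 7.6, 8.4 and 8.28 in B6. Pck1 differed by 6.21 ± 0.55 and 8.44 ± 0.55, with gastrocnemius at 13.88, 15.4 and 12.31 in the congenic and 11.16, 11.08 and 12.41 in B6. For Cdo1 the gastrocnemius arrays of the strains did not overlap, and for Pck1 the lowest congenic array lay under the highest B6 array. Ppp1r3c differed by -4.13 ± 0.6 and -1.53 ± 0.6, with its lowest liver value on L409, and the strain difference was -2.59 ± 0.85 with that array and -1.86 ± 0.72 without it. Bhmt (12.96 and 11.51) and Hpd (11.65 and 10.17) were not detected on the congenic gastrocnemius arrays, so their differences rest on background values there. On chromosome 7, which carries the marker of the strain name, 15 list genes had strain differences from -1.22 to 0.32, with a lowest unadjusted p of 0.0181 for Fah (-1.08 ± 0.4). The bounds of the congenic segment were not stated in the labels.

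**Figure D5:**
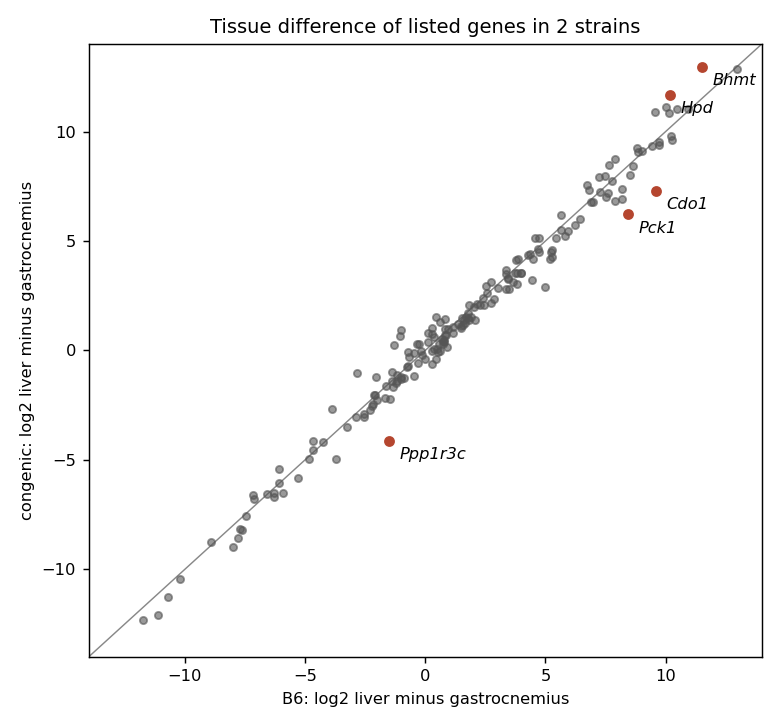
Log2 liver minus gastrocnemius of each listed gene in B6 (horizontal axis) and in the congenic strain (vertical axis), from the fit of 12 arrays, with the line of equality. Most of the 187 points lie near the line, and the 5 genes of smallest p, coloured, lie off it by up to 2.59 without passing the test.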

How the data were processed

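Total RNA extracted with TRIzol was amplified and labelled with digoxigenin, per the labels' protocols. The authors deposited 1 table per array, whose Signal values are linear intensity (per the file headers), beside a signal to noise score. Their software was not stated in the labels or headers. The authors' deposited value table holds log2 Signal plus a constant per array, blank where the score is under 3. Of its columns, 19 were not used.

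Signals were corrected by normexp (offset 50), taken to log2 and quantile normalized among the 6 arrays. The 14788 probes detected on at least 3 arrays were fitted in limma (lmFit, then eBayes with its trend option) and p-values adjusted by Benjamini-Hochberg (R 4.3.3, limma 3.58.1). These p-values reflect the spread among 3 arrays per tissue, whose number sets the precision. The strain comparison was fitted on 12 arrays normalized together, with 4 group means. The platform annotation names 1 gene for 14401 probes and several for 247, and the other 18348 are unnamed here. Symbols of 14392 were brought up to date through their Entrez number (GRCm38.p6 table). The probe of highest mean signal stood for a gene. The called probes of 5 of 263 genes with several tested probes disagreed in direction, none of them in the lists.

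Arrays entered by their labels alone, but the comparison, its gene members and the lists were chosen with earlier results of these data known. Named are the liver and muscle gene pairs, to which the rule adds Gamt with Ckm. Also named are the 4 largest called members of each list detected on at least 1 array of each tissue. Members detected in 1 tissue, members not called and the 10 largest genes per direction are named too. Further members are named to complete a pathway, chosen after their values were seen, as were the 5 promoters. The test was checked on simulated data. Alternatives covered scaling, background, filter, trend, block and each left-out array.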

Additional observations from a re-analysis of the deposited data

How the results depend on the processing

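No listed gene changed direction while called under any of the alternatives run. Of the 184 listed genes, 175 to 184 kept their call or stayed uncalled under each of the 16 alternatives that tested all of them. A gene that stayed uncalled is counted there even where its sign changed, as for Gatm without liver array L409. The count was 116 of 119 under the deposited value table and 107 of 107 when detection on all 6 arrays was required. Those 2 settings leave out genes seen in a single tissue by construction. Leaving out each array in turn gave 6284 to 7234 called probes against 7531. With the title number as a replicate block, 7124 probes were called and the estimated correlation within numbers was -0.213. In the lists the block ended the calls of Pgls and Slc6a8 and no other. Since the labels do not say that a number names an animal, the arrays share a number only.

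The deposited value table gave 4775 called probes, 2273 higher in liver and 2502 in gastrocnemius, and detection on all 6 arrays gave 4547, with 1819 higher in liver. In that order, the calls higher in liver were 0 and 0 for glucose uptake, 1 and 1 for glycolysis, 4 and 4 for gluconeogenesis, 1 and 1 for glycogen synthesis, 3 and 2 for the urea cycle, 5 and 5 for aromatic breakdown and 9 and 8 for serine to cysteine. The calls higher in gastrocnemius were 0 and 0 for glucose uptake, 6 and 6 for glycolysis, 5 and 5 for glycogen synthesis, 2 and 2 for glycogen breakdown, 3 and 3 for hormone signalling and 0 and 0 for muscle protein breakdown. Detection on all 6 arrays also left 1 such call each in gluconeogenesis and in proline to creatine and 0 in the transporters. The medians under both settings were -1.09 and -1.47 for glycolysis, 1.28 and 2.1 for gluconeogenesis, -0.08 and -0.19 for glycogen breakdown, 4.36 and 4.22 for aromatic breakdown and 4.63 and 4.42 for serine to cysteine. Muscle protein breakdown turned from -3.3 to 0.86 and 0.73. With detection on all 6 arrays the urea cycle median was 8.23 and that of the transporters 1.72.

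With no filter the medians were -1.3 for glycolysis, -1.81 for glycogen synthesis, 5.21 for serine to cysteine, 0.19 for the transporters and -0.04 for muscle protein breakdown, since more undetected genes enter. Cyclic loess gave medians of 3.93 for gluconeogenesis, -1.82 for glycogen synthesis, 0.89 for branched-chain breakdown and 0.93 for hormone signalling, and 12 branched-chain genes higher in liver, and the cause was not tested. It moved the median of all tested probes from -0.04 to 0.05.

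Over the left-out arrays, the median of proline to creatine ran from 1.13 to 2.07 and that of aromatic breakdown from 6.7 to 7.64. The calls higher in gastrocnemius ran from 0 to 1 in branched-chain breakdown and from 1 to 2 in serine to cysteine, both reached without L409. Calls of glycogen breakdown higher in liver ran from 1 to 2, the lower without Gas409. The calls for the strain difference of the tissue difference ran from 0 to 3. A level of a probe that is not detected is background, which limits what these arrays show for genes seen in 1 tissue.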
